A study of Danio rerio with 3 samples.

Results

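Aggrecan, versican and the link proteins build the hyaluronan aggregates of cartilage, and the genes for them were followed in cartilage of wild-type zebrafish larvae. The members were chosen by name from a list of 10 genes, namely acana, acanb, vcana, vcanb, hapln1a, hapln1b, hapln2, hapln3, has2 and cd44a. Of these, 7 had a row in a count table of 14417 gene names, and vcana, hapln2 and cd44a were not matched to a row by name or by a RefSeq synonym. A name without a row is not a count of 0, and the 3 genes were not analysed here. The tissue was cartilage of the cranial base in the occipital region at 6 dpf, taken by laser so as to leave out the perichondrium. Its RNA was amplified for 1 round before sequencing. There were 3 samples, called libraries 1, 3 and 6 after their titles, all of the wild-type genotype, untreated and of 1 condition. No sample of another tissue, age or genotype was compared, so nothing here separates cartilage from its surroundings.

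Aggrecan is a large proteoglycan whose core protein carries many chondroitin sulfate chains. Its amino-terminal domain binds hyaluronan, a long unsulfated polysaccharide, and a link protein holds that bond in place, so that many aggrecan molecules line up along a strand and draw water into the matrix. Versican belongs to the same lectican family and is known from looser matrices and from early, condensing cartilage. Hyaluronan itself is made at the plasma membrane by hyaluronan synthases, and CD44 is a receptor that ties it to the cell surface. Zebrafish carry a pair of copies of several of these genes, as the suffixes a and b show.

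Depth was 18920027 to 25604897 counts per library. A single row, AC024175.4, held 34.7% to 59.0% of them, which left 9855389 to 12355434 counts on other genes. Counts were therefore scaled with TMM factors, a trimmed mean over genes that such a row cannot dominate, and 1 read was worth close to 1 normalized count in each library. All 14 chondrocyte markers found in the table reached 10 normalized counts or more in each of the 3 libraries, the minimum used throughout, and their median rank lay at the 99.4th percentile of all genes. Markers of other tissues were also counted. Library 1 stood apart by its perichondrium and bone markers, which summed to 193770 normalized counts against 6340 in library 3 and 11988 in library 6, and by its epidermis markers, with 28817 against 1038 and 1951. The most abundant of these were col1a1b and col1a1a for perichondrium and bone and krt5 and krt4 for epidermis, as col2a1a and col11a1a were for chondrocytes. The collagen I genes col1a1b, col1a1a and col1a2 held most of the perichondrium and bone sum in library 1. The markers sp7, runx2b and dlx5a of the same list were not highest there. In libraries 1, 3 and 6, muscle markers, led by mylpfa and pvalb2, summed to 8694, 4077 and 12850. Nerve markers, led by tubb5 and nefma, summed to 4722, 9173 and 14045. Blood markers, led by hbaa1 and ba1, summed to 34564, 5168 and 35490, and notochord markers, cav1 and ptgs2a, to 1526, 185 and 575. The chondrocyte, muscle, nerve and blood sums were all highest in library 6, with blood nearly as high in library 1.

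All 7 members passed the minimum, which 67.8% of all genes in the table passed. Together they held 13673, 20413 and 20769 counts in libraries 1, 3 and 6, or 18449 ± 4762 normalized counts (SD, n = 3 libraries). The link protein hapln1b and the aggrecan acana made up most of them. Of the members' counts, hapln1b took 58.8% in library 1, with a 95% Wilson interval of 57.9 to 59.6%. The share was the same in library 3, at 58.8% (58.1 to 59.5%), and higher in library 6, at 73.7% (73.1 to 74.3%). Each share depends on the other members. The share of acana was 29.3%, 37.8% and 19.7% in libraries 1, 3 and 6, and hapln3 took 7.60% in library 1 but 0.21% in library 3 and 0.26% in library 6. These are shares of reads, not of transcripts, since no gene lengths were used. The intervals cover counting error only, because copies made by amplification are not independent molecules. In bulk RNA, a change in the number of cells that express a gene and a change in RNA per cell cannot be told apart.

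**Figure D1:**
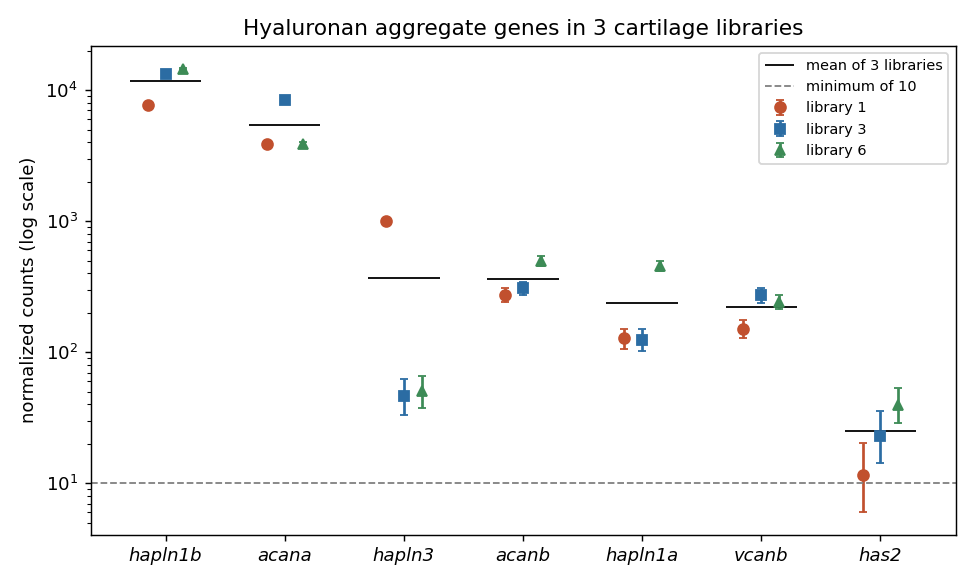
Normalized counts (log axis) of the 7 members in libraries 1, 3 and 6, with 95% Poisson intervals as error bars, the mean as a black line and the minimum of 10 as a dashed line. Reads on hapln1b and acana are far above the rest, and hapln3 is the member whose library 1 value, 1003, is far from its values of 46.3 and 50.2 in libraries 3 and 6.

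Of the core proteins, acana was counted far more often than its duplicate acanb. The reads on acana numbered 4013, 7707 and 4095 in libraries 1, 3 and 6, or 3873, 8489 and 3877 normalized counts. Library 3 thus stood above libraries 1 and 6. Under TMM scaling these lay within counting error of each other, with Poisson intervals of 3755 to 3995 and 3760 to 3998. Under total-count scaling they were further apart, at 3419 in library 1 and 4722 in library 6. The mean of 5413 ± 2664 normalized counts (SD, n = 3) put acana 253rd among the 14417 genes by mean CPM. Its SD of log2 values over libraries was 0.65, above that of 80.1% of the 347 genes with a mean from 0.5 to 2 times its own.

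The duplicate acanb had 284, 279 and 525 reads in libraries 1, 3 and 6, which came to 274, 307 and 497 normalized counts. Here library 6 was the high one, and the intervals of libraries 1 (243 to 308) and 3 (272 to 346) overlapped. The mean was 360 ± 120 (SD, n = 3), at rank 3317. The SD of its log2 values was 0.45, less than the median of 0.68 over the 3644 genes of like level.

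The read ratio of the aggrecan copies varied between libraries about as much as the ratio of either copy to the median gene above the minimum. Reads on acana outnumbered those on acanb 14.1 times in library 1, 27.6 times in library 3 and 7.80 times in library 6. The log2 ratio was 3.85 ± 0.91 (SD, n = 3). Of the genes above the minimum, 49.3% were steadier against acana than acanb was, and 57.3% were steadier against acanb than acana was. Those genes are of all levels, and pairs of like level were not compared. The median SD of log2 values was 0.69 over genes above the minimum but 0.42 over genes of the level of acana. The gene acana held between 88.6% (95% Wilson interval 87.7 to 89.5%, library 6) and 96.5% (96.1 to 96.9%, library 3) of aggrecan reads. Gene length cancels when this ratio is compared between libraries, but not when the copies are compared with each other. As no lengths were used, equal levels of the copies were not tested, and an exact sign-flip permutation over 3 libraries could not have given a two-sided p below 0.25. In the RefSeq annotation of the GRCz12tu assembly, the acana model spans 13 other protein-coding genes. The annotation behind the counts is not given in the sources used here, so reads shared with such genes could not be checked.

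Versican was represented by vcanb, with 157, 247 and 256 reads in libraries 1, 3 and 6, or 152, 272 and 242 normalized counts. Library 1 was the low one, and the intervals of libraries 3 and 6 overlapped. The mean of 222 ± 62.8 (SD, n = 3) put vcanb at rank 4772. It was among the steadier genes of its level, with an SD of 0.44 on the log2 scale against a median of 0.81 over 4261 genes.

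Among the link proteins, hapln1b gave the most reads. Link protein 1 is the form purified from cartilage aggregates in mammals. Its copy hapln1b had 8036, 12004 and 15316 reads in libraries 1, 3 and 6, or 7757, 13222 and 14502 normalized counts, and the 3 Poisson intervals did not overlap. The mean was 11827 ± 3583 (SD, n = 3), at rank 126 of all genes. Its SD on the log2 scale was 0.49, against a median of 0.39 over the 156 genes of like level.

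The copy hapln1a was counted much less often, with 132, 113 and 482 reads in the same order, or 127, 124 and 456 normalized counts. Library 6 lay 3.67 times above library 3, whereas libraries 1 and 3 were within counting error of each other. The mean of 236 ± 191 (SD, n = 3) fell to 126 without library 6. The log2 ratio of hapln1a to hapln1b was -5.92, -6.72 and -4.99 in libraries 1, 3 and 6, an SD of 0.87. Of the genes above the minimum, 20.6% were steadier against hapln1a than hapln1b was, and 54.7% were steadier against hapln1b than hapln1a was.

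The third link protein, hapln3, spread furthest between libraries. It had 1039 reads in library 1 but 42 in library 3 and 53 in library 6, or 1003, 46.3 and 50.2 normalized counts. Libraries 3 and 6 were within counting error of each other, at intervals of 33.3 to 62.5 and 37.6 to 65.6. Library 1 was 21.7 times higher than library 3 and 20.0 times higher than library 6. The mean of 366 ± 551 (SD, n = 3) fell to 48.2 without library 1, so this mean is no description of a typical library. The SD of 2.51 on the log2 scale exceeded that of 96.4% of the 3598 genes of like level.

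The high library of hapln3 was the library rich in collagen I and epidermal RNA. With a cut chosen after the values were seen, hapln3 was the 1 member of 7 at least 10 times higher in library 1 than in each other library, as were 2.77% of the 13166 genes averaging 10 normalized counts or more. By the same measure, 5 of 10 perichondrium and bone markers were 10 times higher in library 1, namely col1a1b, col1a2, phex, postnb and spp1. So were 3 of 5 epidermis markers, namely cldne, epcam and krt5. None of the 14 chondrocyte, 9 muscle, 9 nerve, 4 blood or 2 notochord markers was. In libraries 3 and 6, hapln3 was at 4.61% and 5.00% of its library 1 level. The collagen I gene col1a1a was at 6.85% and 10.6%, the matricellular gene postnb at 9.69% and 7.45%, and the keratin gene krt5 at 0.287% and 0.636%. Not every marker of those tissues did this. The osteoblast factor sp7 had 0 reads in library 1, where a count of 0 allows up to 3, against 27 in library 3 and 47 in library 6. The osteoblast regulator runx2b had 606, 492 and 1439 normalized counts in libraries 1, 3 and 6, dlx5a 24.1, 24.2 and 27.5, and the simple-epithelium keratin krt8 1317, 896 and 1040. By contrast, cldne had 506 reads in library 1 and 0 in libraries 3 and 6. The part of these tissues in the hapln3 reads was not tested.

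**Figure D2:**
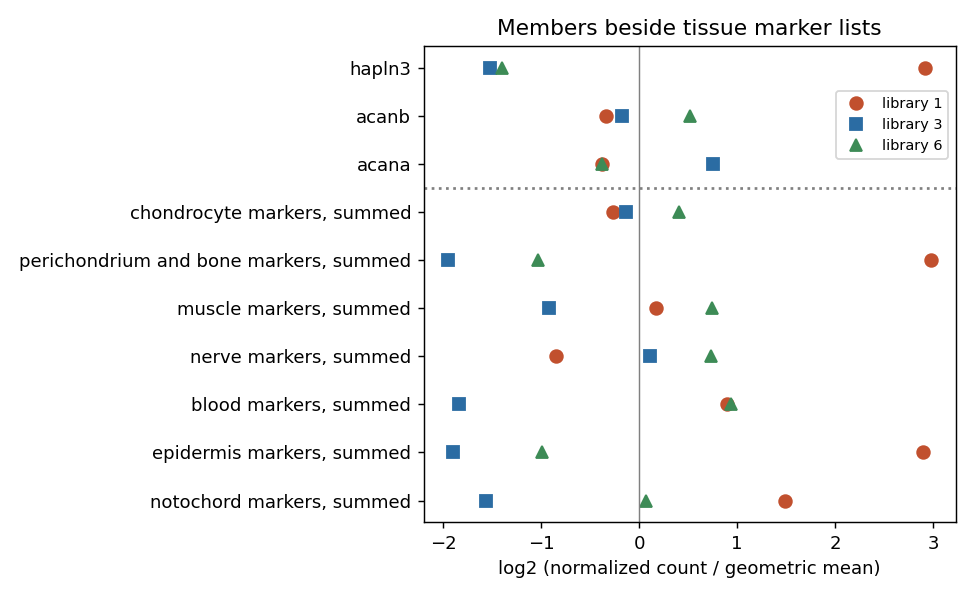
Normalized counts of hapln3, acanb and acana and the summed counts of 7 tissue marker lists in libraries 1, 3 and 6, each as log2 of the value over the geometric mean of its 3 libraries. Library 1 lies far to the right for hapln3, for perichondrium and bone markers and for epidermis markers. The order of libraries for acanb is that of the summed chondrocyte markers and also that of the summed nerve markers.

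Type II collagen forms the fibrils that trap aggrecan in cartilage, so each member was set against col2a1a within each library, a ratio that scaling cannot alter. The gene col2a1a had 282200, 336420 and 480763 normalized counts in libraries 1, 3 and 6. The log2 ratio of acanb to col2a1a was -10.01, -10.10 and -9.92 in the same order. Its SD of 0.089 was the smallest of the members, and 1.01% of the 9779 genes above the minimum had a smaller one. The lowest of 7 members tends to have a low percentage. Of the ratios to col2a1a, only that of summed aggrecan was planned. For acana the log2 ratio was -6.19, -5.31 and -6.95, with an SD of 0.82 that was above the median of 0.78 over those genes. With both aggrecans summed, the log2 ratio was -6.04 ± 0.76 (SD, n = 3), since acana supplied most of the reads. The ratio of hapln1b to col2a1a had an SD of 0.27, lower than that of all but 8.50% of genes. For vcanb it was 0.37, for has2 0.52, for hapln1a 0.72 and for hapln3 2.83, the last above 99.5% of genes.

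**Figure D3:**
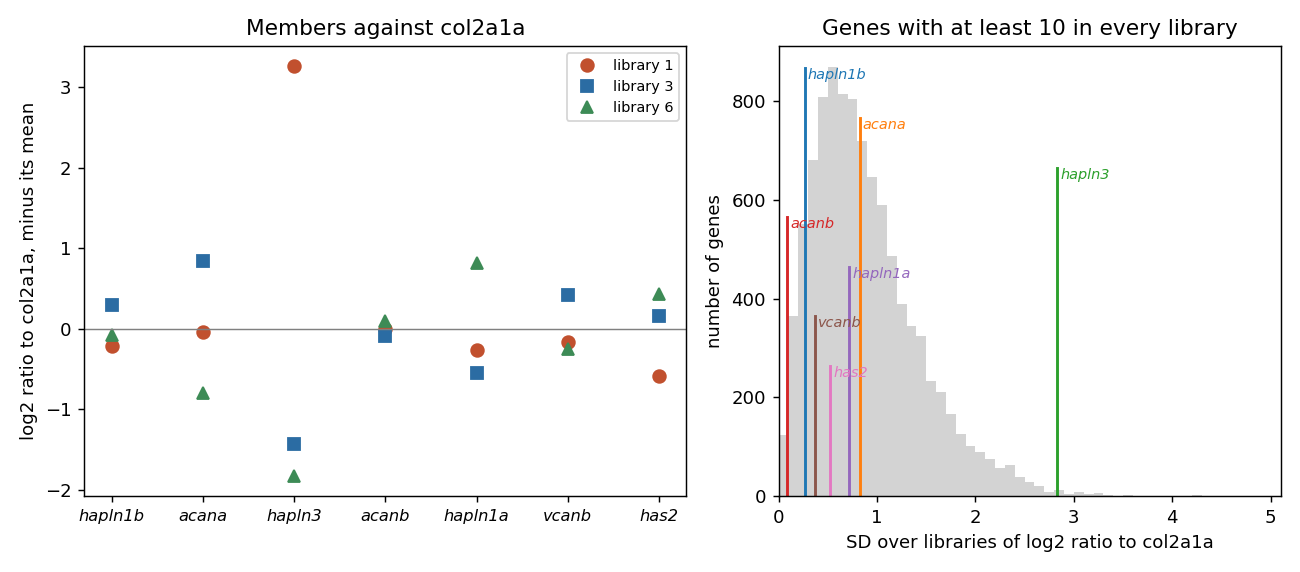
Left, log2 ratio of each member to col2a1a in libraries 1, 3 and 6, less the mean of its 3 values. Right, the SD of that ratio over libraries for the genes above the minimum (grey bars, number of genes), with a coloured line for each member. The acanb points nearly coincide at 0, with an SD of 0.089, and hapln3 lies in the far tail at 2.83.

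The close course of acanb and col2a1a did not extend to all cartilage genes. In a comparison added after seeing the data, each of the 13 other chondrocyte markers served as denominator, and acanb was the steadiest member for 6 of them. The SD of its log2 ratio was 0.16 with lect1, which encodes chondromodulin, 0.17 with the type IX collagen col9a2 and the matrilin matn1, 0.18 with col9a3, and 0.19 with the type XI collagen col11a1a. The sixth was col11a2, at 0.59. It was 0.89 with col2a1b, the other type II collagen gene, 1.46 with col9a1 and 0.79 with ucmab, each above the median over genes above the minimum for the same denominator. All 3 of these markers were highest in library 1, whereas acanb was highest in library 6. The gene col11a2 was also highest in library 1, yet the acanb SD with it, 0.59, was below the median of 0.72. The col9a1 row averaged only 186 normalized counts. A more abundant row, COL9A1 (2 of 2), averaged 10889 and was also highest in library 1, but it was not used as a denominator. With sox9a, sox6, epyc and sox5 the SD was 0.33, 0.42, 0.53 and 0.67. The median over the 13 was 0.42. With the summed chondrocyte markers, most of whose reads come from a few collagen and matrilin genes, the SD was 0.10. With 3 libraries, many genes share a course. By the root mean square difference of centred log2 values over the 3 libraries, the genes nearest to acanb were rpl13a, a ribosomal protein gene (0.0092), ino80c (0.012) and the glutamine synthetase gene glula (0.012), and 128 of 7538 genes averaging 100 or more lay within 0.1. The nearest to acana were furina, which encodes a furin convertase (0.020), fggy (0.021) and ndufs1, of respiratory complex I (0.025), with 74 genes within 0.1.

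In mammals, each link protein gene lies beside a lectican gene. The RefSeq annotation of zebrafish GRCz12tu shows the same arrangement for acanb with hapln3, vcanb with hapln1b and vcana with hapln1a, with no protein-coding gene between them (0 in each case). The neighbours vcanb and hapln1b were the steadiest of all 21 pairs of members. The log2 ratio of vcanb to hapln1b was -5.67, -5.60 and -5.90 in libraries 1, 3 and 6, an SD of 0.16. Of the genes above the minimum, 2.68% were steadier against hapln1b than vcanb was, and 3.01% were steadier against vcanb than hapln1b was. The lowest of 21 pairs tends to have low percentages, and a link to gene order was not tested. The ratio of the neighbours acanb and hapln3 was far less steady. The log2 ratio of acanb to hapln3 was -1.87, 2.71 and 3.28 in libraries 1, 3 and 6, an SD of 2.82. Every other pair with hapln3 was less steady still, up to an SD of 3.29 with has2, so acanb was the steadiest partner of hapln3 among the members. Whether the counting used strand is not stated in the sources used here, so reads running from a gene into its neighbour could not be told from its own.

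The synthase has2, which builds hyaluronan in early heart and limb tissue of mammals, was the lowest member, with 12, 21 and 42 reads in libraries 1, 3 and 6. These came to 11.6, 23.1 and 39.8 normalized counts, with Poisson intervals of 5.98 to 20.2, 14.3 to 35.4 and 28.7 to 53.8. The intervals of libraries 1 and 6 did not overlap, while that of library 3 overlapped both. Overlap is not a test of a difference. The mean was 24.8 ± 14.2 (SD, n = 3), at rank 11430 of 14417. The synthase gene has3, which is not a member, carried far more reads, at 4229, 3676 and 1742. Its normalized counts of 4082, 4049 and 1649 were lowest in library 6, where has2 was highest. Reads on has3 were 352 times those on has2 in library 1, 175 times in library 3 and 41.5 times in library 6. The gene has1 was not matched to a row.

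Of 101 further gene names from hyaluronan and proteoglycan biology, among them alternatives such as cemip2 and tmem2, 61 were matched to a row of their own. Of those rows, 46 (75.4%) passed the minimum, against 67.8% of all genes. In the list of hyaluronan metabolism, 11 of 12 rows passed, has2 included. The precursor enzyme ugdh, which makes UDP-glucuronic acid, had 188, 185 and 317 normalized counts in libraries 1, 3 and 6. Of the genes named as hyaluronidases, HYAL1 (1 of 2) had 310, 48.5 and 94.7, hyal3 16.4, 26.4 and 23.7, and hyal4 205, 284 and 297. The gene tmem2, for a cell surface hyaluronidase, had 336, 140 and 313. What each enzyme cuts was not measured. The most abundant rows after has3 were those of uap1l1, with 607 ± 85.7 normalized counts.

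Of the 9 rows of hyaluronan receptors and binding proteins, 3 passed the minimum, namely the receptors stab2 and hmmr and the binding protein itih6, beside 67.8% of all genes. The median of the 9 mean levels was 40.5 normalized counts, against 110 over all genes, and the difference was not tested. The receptor gene cd44b had 2, 25 and 19 reads in libraries 1, 3 and 6, and LYVE1 (2 of 2), of the lymphatic receptor family, had 10, 4 and 2. The scavenger receptor stab2 had 521, 55.1 and 130 normalized counts, and its relative stab1 43.4, 70.5 and 7.57. The hyaluronan-mediated motility receptor hmmr had 59.8, 211 and 29.4. Among the binding proteins, itih6, of the family of inter-alpha-inhibitor heavy chains, was steady at 531, 822 and 607. The gene ambp, whose mammalian product yields the bikunin chain of that inhibitor and comes from liver, was counted 2194 times in library 1 and 2003 times in library 3 but 1 time in library 6.

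**Figure D4:**
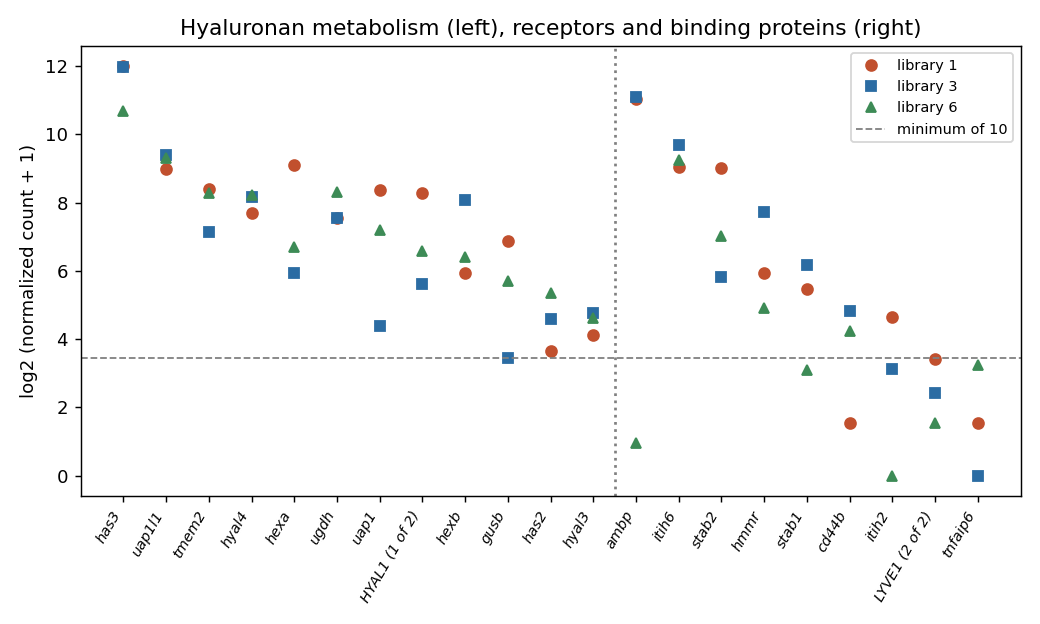
Log2 of normalized count plus 1 for genes of hyaluronan metabolism (left of the dotted line) and for receptors and binding proteins (right) in libraries 1, 3 and 6, with the minimum of 10 as a dashed line. The synthase has3 is at the top left, has2 lies near the minimum, 6 of the 9 genes on the right have at least 1 library below it, and ambp is near 0 in library 6.

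Partners and enzymes of the aggregates passed the minimum in shares near the 67.8% of all genes. Of the other lecticans and lectican partners, 8 of 11 rows passed, led by matn1 with 162792 ± 75182 normalized counts and matn4 with 6899 ± 844. Matrilins link collagen fibrils to proteoglycans. The brain lectican gene ncana was low, at 15.4, 28.6 and 31.2 normalized counts. Of proteases that can cut aggrecan or versican and their inhibitors, 6 of 8 passed. The gelatinase gene mmp2 had 4471, 5343 and 11388 normalized counts and the membrane protease gene mmp14a 1471, 1437 and 1825. Of the ADAMTS family, to which the aggrecanases belong, adamts9 had 17.4, 193 and 65.3, and adamts15a had 28.0, 2.20 and 80.5 and did not pass. The listed names adamts1, adamts4, adamts5, adamts8a, adamts15b and adamts20 were not matched to a row.

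Genes for chondroitin sulfate synthesis, sugar and sulfate supply included, passed in 12 of 15 matched rows, beside 67.8% of all genes. Of these rows, chondroitin synthase chsy1 had 2154 ± 495 normalized counts and xylosyltransferase xylt1, which starts the chain, 1161 ± 509 (SD, n = 3). Rows CSGALNACT1 (1 of 2) and CSGALNACT1 (2 of 2) were not matched to listed names and lie outside these counts. Their means were 4293 and 133 normalized counts, the first of them above chsy1. The summed list of matched rows was the most even, at 8562, 8169 and 8328 in libraries 1, 3 and 6. All 7 matched rows of Sox and Runx factors passed, beside the same 67.8%, and runx1 was not matched to a row. The highest were sox6 with 13955 ± 1935 and sox5 with 3858 ± 720, which act with Sox9 on cartilage matrix genes including aggrecan in mammals. For sox9a the normalized counts were 996, 1757 and 2289, the order of libraries seen for hapln1b and acanb and not for acana.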

How the data were processed

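RNA was measured in 3 laser-captured wild-type cartilage samples. The authors deposited raw counts of reads per gene name, 1 column per sample, and all were used. The submitters' processing notes name Zv9, Trimmomatic 0.36 and edgeR; aligner, counting tool, annotation and strand setting are not given in the sources used here. TMM factors were computed on all genes in edgeR 4.0.16 under R 4.3.3. Counts were divided by the effective library size and multiplied by its mean over libraries, which gave normalized counts. Log2 values used a pseudocount of 1, except ratios to a cartilage gene. The scaling step was tested on simulated counts with known library scales. Python 3.11.15 with numpy 2.4.6, pandas 2.3.3 and scipy 1.17.1 gave Poisson and Wilson 95% intervals. Genes of like level have a mean within a factor of 2. With 1 condition, no differential test was made. Whether the samples came from separate larvae is not stated in the labels, although the methods call them independent, so the SD may be partly technical. The ratio of acana to acanb was to be tested per length, but no lengths were used. RefSeq GRCz12tu served only for synonyms and gene order.

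The members and lists were chosen with earlier results of these data known. The text names each member, col2a1a, the 2 most abundant matched genes of each list, listed synthases, hyaluronidases and receptors, and the 3 genes most like acana and acanb. The rows CSGALNACT1 (1 of 2), CSGALNACT1 (2 of 2) and COL9A1 (2 of 2) were looked up after the values were seen. Other genes of the lists (ugdh, ncana, adamts9, adamts15a, phex, spp1, cldne, sp7, epcam, col1a2, postnb, runx2b, dlx5a, krt8 and the remaining chondrocyte markers) were named after their values were seen. The alternatives were DESeq2 1.42.0 size factors, other scalings, minimums and pseudocounts, and leaving out each library.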

Additional observations from a re-analysis of the deposited data

How the results depend on the processing

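All 7 members passed under every scaling, with each library left out and with raw counts. In library 1, has2 passed only narrowly, at 11.6 with a Poisson interval of 5.98 to 20.2, and at 10.2 under total-count scaling. A minimum of 50 was passed by 5 members and missed by hapln3 and has2. Of the pathway genes 44 to 50 passed under the scalings, exact names and left-out libraries, 56 and 33 with minimums of 1 and 50, and 57 with 10 in the mean. None of 35 levels under another scaling moved by more than its SD, the largest by 10.7%. Total-count scaling shifted library 6 up by 0.28 and library 1 down by 0.18 on the log2 scale for all genes, and made library 6 the highest for vcanb, with 295 against 253 normalized counts in library 3. The lowest library became 6 for acana under DESeq2 size factors. For hapln1a it became 1 under total-count and upper-quartile scaling. The log2 ratio of acana to acanb was 3.39 to 4.30 with a library left out and moved less under other settings. The median SD of the 20 other log2 ratios between members, 0.76, was 0.56 to 0.71 with a library left out, where 2 values replace 3. The median SD of the members, 0.65, was 0.48 to 0.64 in that case. No paired analysis was possible because there is 1 group. Depth limits has2, with 12 to 42 reads, and cd44b, with 2 to 25.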

Other observations

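The table also holds rows whose names were not in the gene lists and which were looked up after the values were seen. KIAA1199 (2 of 2), an older name of the hyaluronan-degrading protein CEMIP in humans, had 20, 2 and 21 reads in libraries 1, 3 and 6. The row hyal2 had 0, 2 and 68 reads and HYAL2 (3 of 3) had 214, 28 and 19, in opposite order. For hyal2 a count of 0 in library 1 allows up to 3 counts, or 2.90 normalized counts.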
